A study of Homo sapiens with 27 samples.

Results

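IFIT1, IFIT2, IFIT3 and IFIT5 encode the human interferon-induced proteins with tetratricopeptide repeats, and IFIH1 and DHX58 encode the cytosolic RNA sensors MDA5 and LGP2. These 6 genes were taken by symbol from the 20453 genes of the tables of RNA-seq and ribosome footprint counts, and all 6 were detected and tested in both assays. The cells were THP-1, a human monocytic leukaemia line, and PMA, a phorbol ester that drives them towards macrophages, was given to every group beforehand, the controls included, at 10 ng/ml for 24 h. The 3 groups were then held for 3 h with 100 ng/ml lipopolysaccharide plus 1 µM dexamethasone (LPS+Dex), with 100 ng/ml lipopolysaccharide alone (LPS), or with the solvents only (vehicle). Each group had 5 libraries of ribosome-protected footprints and 4 libraries of poly(A) RNA made from the same cells. Dexamethasone was never given alone, so its effect was measured only in the presence of LPS. The labels number the replicates without saying whether they were separate cultures, and p-values therefore measure the spread between these libraries of 1 cell line.

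LPS, a component of bacterial walls, is sensed by TLR4, which signals to NF-kB and, through the adaptor TRIF, to the transcription factor IRF3 and the gene of interferon beta. Interferon acting back on the cell activates a transcription factor complex that includes STAT2 and IRF9 and binds the interferon-stimulated response element (ISRE) of target genes such as those of the IFIT family. The IFIT proteins bind foreign RNA directly: IFIT1 grips messages whose cap lacks ribose methylation, IFIT3 binds IFIT1 and stabilises it, IFIT2 joins the same complexes, and IFIT5 binds RNA ends that carry a triphosphate. MDA5 senses long double-stranded RNA and signals through MAVS on mitochondria, whereas LGP2 lacks the signalling domains and tunes the other sensors. Dexamethasone is a synthetic glucocorticoid, whose receptor activates some genes and restrains many inflammatory ones.

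The 4 IFIT genes lie within 119 kb of chromosome 10, and the sensors lie on other chromosomes. In GRCh38.p14, IFIT2 (ENSG00000119922) is at chr10:89302046-89309271, IFIT3 (ENSG00000119917) at chr10:89327997-89340968, IFIT1 (ENSG00000185745) at chr10:89392623-89406487 and IFIT5 (ENSG00000152778) at chr10:89414568-89420997. IFIH1 (ENSG00000115267) is at chr2:162267074-162318684 and DHX58 (ENSG00000108771) at chr17:42101411-42112714. LIPA, the gene of lysosomal acid lipase, runs over chr10:89213572-89414679 on the opposite strand and spans IFIT2, IFIT3 and IFIT1 whole and the first 112 bases of IFIT5. GCA begins 78 bases from the start of IFIH1, at chr2:162318763-162375396, and points the other way. Whether reads were assigned by strand, and how reads shared by related IFIT sequences were treated, is not given in the sources used here, so the IFIT values are uncertain to that extent.

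The bases before the start sites are shown because the ISRE is the element through which these genes are known to answer interferon. RefSeq windows were matched for 4 of the 6 genes, in 5 windows, since IFIT3 has a pair of start sites. IFIT2 and DHX58 had no window, so the matches below say nothing about them. The capitals mark the ISRE core, GAAA, any 2 bases and GAAA again, read on either strand, in the strand of each gene.

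IFIT1, chr10:89392373-89392622, + strand: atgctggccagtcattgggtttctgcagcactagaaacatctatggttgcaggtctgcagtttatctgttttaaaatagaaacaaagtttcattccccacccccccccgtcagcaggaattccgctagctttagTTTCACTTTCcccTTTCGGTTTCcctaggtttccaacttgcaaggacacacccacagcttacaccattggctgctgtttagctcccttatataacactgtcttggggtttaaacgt
IFIT3, chr10:89327747-89327996, + strand: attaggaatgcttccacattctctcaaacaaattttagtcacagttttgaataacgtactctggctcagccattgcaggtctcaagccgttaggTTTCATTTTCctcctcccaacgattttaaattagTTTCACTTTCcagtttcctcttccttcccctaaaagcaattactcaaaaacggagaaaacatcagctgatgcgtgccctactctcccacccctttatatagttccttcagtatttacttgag
IFIH1, chr2:162318685-162318762, - strand: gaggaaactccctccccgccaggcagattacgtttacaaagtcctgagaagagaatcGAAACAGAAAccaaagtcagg

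IFIT1 holds a pair of ISRE cores whose first bases are 13 apart, between -116 and -94 from the start site, and in the first window of IFIT3 they are 34 apart. The second IFIT3 start site has a pair as well, at -94 to -85 and -51 to -42. IFIT5 has the cores TTTCGGTTTC at -45 to -36 and TTTCGATTTC at -19 to -10. The window of IFIT5 overlaps the beginning of LIPA, which runs on the opposite strand, and is not shown. The IFIH1 stretch ends where GCA begins. It holds 1 core at -21 to -12, and 2 more cores that overlap each other lie inside GCA at -159 to -150 and -153 to -144. IFIH1 also matched the kappaB consensus, the site of NF-kB, at -76 to -67, as did 9.96% of all windows. Each of the 5 windows thus held at least 2 ISRE cores. Of all 35116 windows of the same length, 3.02% held at least 1 core, 0.225% at least 2 and 0.0228% at least 3. The glucocorticoid response element (AGAACA, any 3 bases, TGT), found in 0.285% of all windows, and the gamma-activated site TTCNNNGAA, found in 6.57%, matched none of the 5. A match describes letters and not a bound site.

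Levels are given in CPM, the counts of a gene relative to the TMM-scaled total of its library, and are compared within a gene only. Total counts were 19 to 30.7 M per RNA library and 11.5 to 26.1 M per footprint library. All 12 monocyte and macrophage markers examined averaged at least 1 CPM in every group of both assays, and the erythroid genes HBA1 and HBB were at 0 in RNA. Sums over some marker lists of other cell types differed between treatments. The summed RNA of 5 T cell markers was 14.8 to 18.5 CPM in LPS+Dex, 17.4 to 19.9 CPM in LPS and 101 to 126 CPM in vehicle, nearly all of it TRAC (49.7 CPM over all RNA libraries), whereas CD3D, CD3E and CD2 averaged at most 0.0241 CPM and CD3G was at 0. That of 4 endothelial markers was 140.4 to 185 CPM in LPS+Dex, 123 to 175 CPM in LPS and 251 to 431 CPM in vehicle, nearly all of it PECAM1 (213 CPM), with CDH5 at 0.0257 CPM. That of 5 fibroblast markers was 34.6 to 41.8 CPM in LPS+Dex, at most 15.9 CPM in LPS and at most 10.4 CPM in vehicle, mostly COL1A1 (12.9 CPM) and PDGFRA (7.02 CPM). Their part in the results was not tested. Replicate 4 of the footprints differed from its group in all 3 treatments: its mean correlation with its group over genes was 0.958 to 0.966, against 0.980 to 0.986 for the others. Footprint results are therefore given with all 15 libraries and with the 12 that remain without replicate 4.

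The first comparison asks how the cells answer endotoxin. All 6 genes rose with LPS in RNA, against 28.6% of all 13327 genes tested, at adjusted p under 0.05 by edgeR's quasi-likelihood test. All 6 also rose in footprints, against 25.4% of 12197 genes (31.5% without the libraries numbered 4). The RNA libraries of the groups did not overlap for any of the 6, as for 24.4% of genes in that direction, and the footprint libraries did not overlap for any of the 6 either, as for 19.9%. In bulk RNA, a change in each cell and a change in the share of responding cells cannot be told apart. The IFIT genes changed most: the RNA fold changes of IFIT2, IFIT1 and IFIT3 ranked 7, 15 and 21 from the top of all genes tested, those of IFIT5 and IFIH1 149 and 263, and that of DHX58 377.

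The second comparison asks what dexamethasone did to that response. In RNA, 5 of the 6 genes fell with LPS+Dex relative to LPS, against 15.4% of all genes, and DHX58 did not pass; the libraries of the same 5 did not overlap, as for 16.4% of genes. In footprints 2 of the 6, IFIT5 and IFIH1, fell with all libraries, against 7.99% of genes, and 5 of the 6 fell without the libraries numbered 4, against 15.3%. With the replicate number as a block 3 fell, IFIT2 being added, against 14.8%. The footprint libraries did not overlap for 2 of the 6, IFIT1 and IFIT5, as for 6.49% of genes. Against vehicle, all 6 genes were still higher with LPS+Dex, in RNA (29.2% of all genes) and in footprints (24.4% of all genes, 30.8% without the libraries numbered 4). The libraries of the 6 did not overlap there in RNA, as for 26.1% of genes, or in footprints, as for 18% of genes. The 3 comparisons of an assay share libraries and are not independent of each other.

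**Figure D1:**
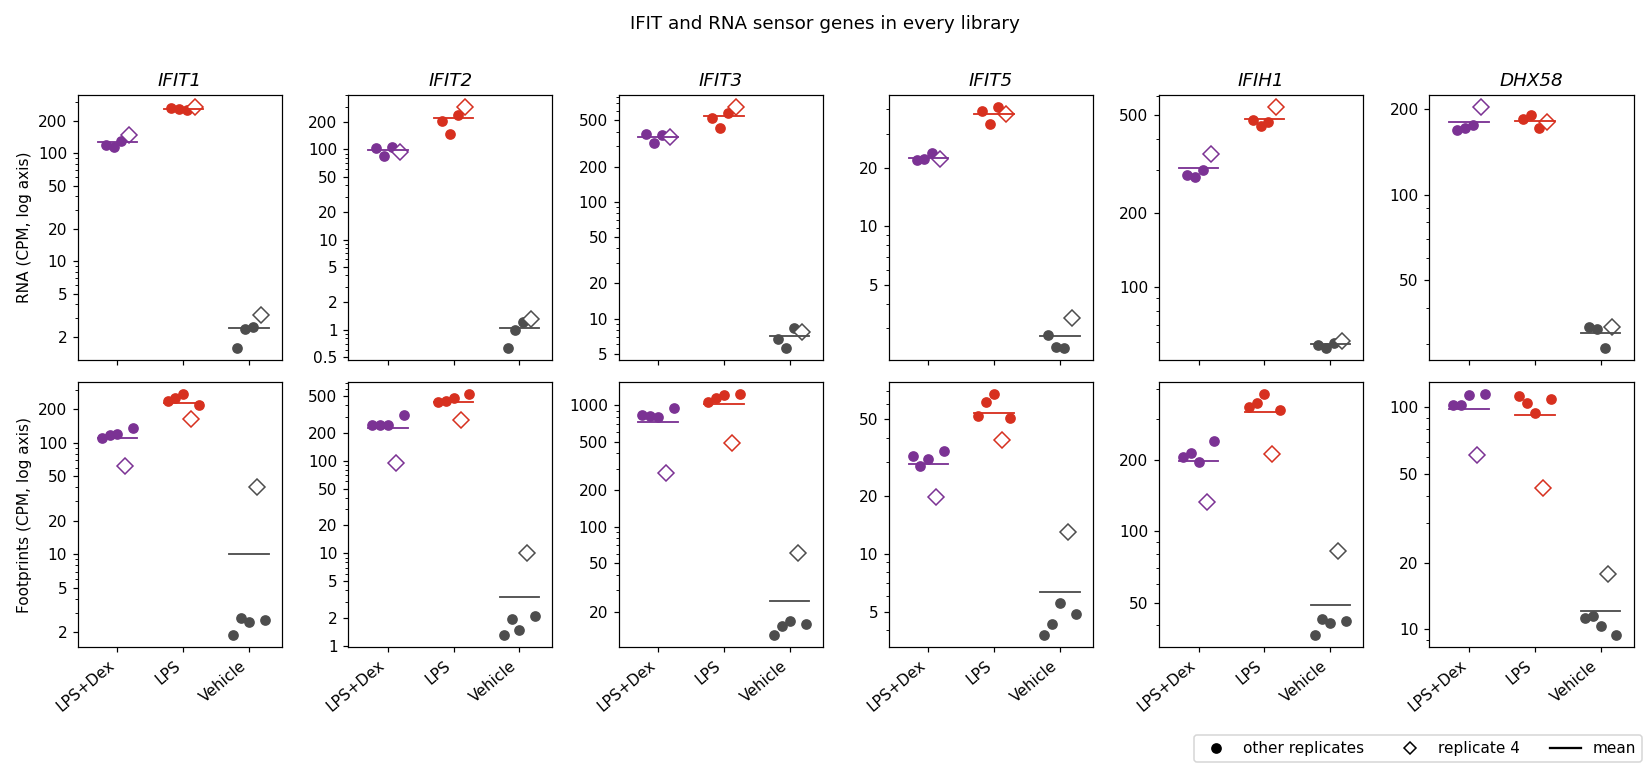
Levels in CPM (log axes, which differ between panels) of the 6 genes in RNA (upper row) and footprints (lower row), for LPS+Dex, LPS and vehicle. Filled points are libraries, open diamonds are the libraries numbered 4 and lines are means over all libraries; in footprints the diamonds lie above the other vehicle libraries and below the other LPS and LPS+Dex libraries.

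IFIT1, which binds RNA with incompletely methylated caps, was nearly silent without LPS. Its RNA was at 120.4, 113, 131 and 147 CPM in LPS+Dex, at 264, 256, 249.8 and 268 CPM in LPS, and at 1.59, 2.39, 2.49 and 3.17 CPM in vehicle (replicates 1 to 4). All LPS+Dex libraries lay below all LPS libraries and far above vehicle. Footprints of IFIT1 were at 111, 117, 120.4, 62.2 and 136 CPM in LPS+Dex, at 237, 251, 271, 164 and 219.9 CPM in LPS, and at 1.88, 2.66, 2.48, 40.3 and 2.60 CPM in vehicle (replicates 1 to 5). Replicate 4 was the lowest library in both LPS groups and the highest in vehicle, yet the groups did not overlap. With LPS, the RNA log2 fold change was 6.73 ± 0.16 (SE, adjusted p = 3.4e-13). The footprint value was 4.57 ± 0.80 (adjusted p = 0.00021), and 6.66 ± 0.11 without the libraries numbered 4. Vehicle replicate 4 decides that difference, since leaving it out alone gave 6.57. With LPS+Dex relative to LPS, IFIT1 RNA fell by 1.02 ± 0.12 on the log2 scale (adjusted p = 1.2e-05), to 49.2% of the LPS level (95% interval 41.3% to 58.6%). The footprint value was -1.06 ± 0.69 (adjusted p = 0.37), and -1.01 ± 0.08 without the libraries numbered 4 (adjusted p = 3.2e-10). Without vehicle replicate 4 alone its adjusted p was 0.00078.

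IFIT2, a partner of IFIT1 and IFIT3, had the largest RNA fold changes of the 6 genes. In RNA it was at 105, 83.8, 108 and 93.6 CPM in LPS+Dex, at 205, 149, 241 and 296 CPM in LPS, and at 0.628, 0.991, 1.22 and 1.31 CPM in vehicle. The LPS libraries were the most scattered, and the lowest of them still exceeded every LPS+Dex library. Footprints were at 245, 242, 243, 94.3 and 315 CPM in LPS+Dex, at 431, 440.0, 483, 278 and 520.4 CPM in LPS, and at 1.30, 1.93, 1.50, 10.2 and 2.12 CPM in vehicle. LPS replicate 4 fell inside the LPS+Dex range, so these 2 groups overlapped, and both were far above vehicle. The vehicle level rests on 15 to 42 reads per RNA library. With LPS, IFIT2 rose by 7.71 ± 0.26 in RNA (adjusted p = 1e-11) and by 7.06 ± 0.61 in footprints (adjusted p = 1.8e-07), or 8.08 ± 0.13 in footprints without the libraries numbered 4. With LPS+Dex relative to LPS, its RNA fell by 1.19 ± 0.18 (adjusted p = 0.00013), to 43.7% of the LPS level (33.6% to 56.9%). In footprints the change was -0.92 ± 0.46 with all libraries, which missed the threshold (adjusted p = 0.22). With the replicate number as a block it passed (-0.93 ± 0.34, adjusted p = 0.046), and it also passed without the libraries numbered 4 (-0.84 ± 0.09, adjusted p = 4.6e-08) and without vehicle replicate 4 alone (adjusted p = 0.021).

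IFIT3, which stabilises IFIT1, had the smallest fitted fall of the IFIT genes with dexamethasone, a difference between genes that was not tested. Its RNA was at 385, 322, 374 and 358 CPM in LPS+Dex, at 524, 435, 575 and 652 CPM in LPS, and at 6.62, 5.62, 8.26 and 7.69 CPM in vehicle. The groups stood apart in all libraries. Footprints were at 822, 809, 802, 276 and 950.4 CPM in LPS+Dex, at 1067, 1138, 1200.3, 483 and 1221 CPM in LPS, and at 12.8, 15.1, 16.8, 60.6 and 15.9 CPM in vehicle. Replicate 4 of LPS lay below 4 of the LPS+Dex libraries, and without it the groups did not overlap. IFIT3 rose with LPS by 6.27 ± 0.16 in RNA (adjusted p = 6.6e-13) and by 5.40 ± 0.52 in footprints (adjusted p = 6.2e-07), or 6.24 ± 0.09 without the libraries numbered 4. With LPS+Dex relative to LPS, RNA fell by 0.60 ± 0.12 (adjusted p = 0.0017), to 65.9% of the LPS level (54.9% to 79.0%). Footprints gave -0.48 ± 0.43 (adjusted p = 0.55), and -0.45 ± 0.07 without the libraries numbered 4 (adjusted p = 2.4e-05). No single library accounts for that change of call: with any 1 library left out the adjusted p stayed at 0.31 or above.

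IFIT5, which binds RNA with a triphosphate end, had the smallest rise of its family. RNA was at 22.1, 22.2, 23.7 and 22.1 CPM in LPS+Dex, at 39.0, 33.5, 41.2 and 37.9 CPM in LPS, and at 2.76, 2.39, 2.38 and 3.38 CPM in vehicle. The LPS+Dex libraries were nearly equal, and no group overlapped another. Footprints were at 32.0, 28.5, 31.0, 19.7 and 34.0 CPM in LPS+Dex, at 51.8, 61.0, 67.1, 39.1 and 50.5 CPM in LPS, and at 3.76, 4.31, 5.55, 12.9 and 4.88 CPM in vehicle. Even with replicate 4, every LPS library exceeded every LPS+Dex library. The rise with LPS was 3.79 ± 0.12 in RNA (adjusted p = 6.1e-12) and 3.13 ± 0.30 in footprints (adjusted p = 5.9e-07), or 3.63 ± 0.12 without the libraries numbered 4. With LPS+Dex relative to LPS, IFIT5 fell by 0.75 ± 0.10 in RNA (adjusted p = 5.9e-05) and by 0.89 ± 0.28 in footprints (adjusted p = 0.037), to 59.5% (51.1% to 69.2%) and 53.9% (35.9% to 81.0%) of the LPS levels. Leaving out single footprint libraries ended this call in 8 of 15 cases, with an adjusted p of up to 0.092. Without all 3 libraries numbered 4 the fall was 0.87 ± 0.10 (adjusted p = 2.4e-07).

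IFIH1, the gene of MDA5, was already present in vehicle cells. RNA was at 287, 282, 301 and 348 CPM in LPS+Dex, at 479, 451, 468 and 540.3 CPM in LPS, and at 57.9, 56.6, 59.4 and 60.5 CPM in vehicle. The 3 groups were separate, and the vehicle libraries agreed closely. Footprints were at 206, 214, 197, 133 and 240.4 CPM in LPS+Dex, at 337, 349, 379, 213 and 325 CPM in LPS, and at 36.4, 42.4, 41.0, 82.5 and 41.9 CPM in vehicle. Replicate 4 of LPS lay within the LPS+Dex range, and the other 4 LPS libraries lay above it. IFIH1 rose with LPS by 3.05 ± 0.08 in RNA (adjusted p = 1.4e-12) and by 2.72 ± 0.24 in footprints (adjusted p = 2.2e-07), or 3.10 ± 0.08 without the libraries numbered 4. LPS+Dex relative to LPS lowered it by 0.67 ± 0.08 in RNA (adjusted p = 1.2e-05) and by 0.69 ± 0.22 in footprints (adjusted p = 0.045), to 62.8% (56.0% to 70.5%) and 61.8% (44.3% to 86.1%) of the LPS levels. Single footprint libraries ended the footprint call in 11 of 15 cases, with an adjusted p of up to 0.11. Without the libraries numbered 4 the fall was 0.69 ± 0.07 (adjusted p = 3.3e-08).

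DHX58, the gene of LGP2, rose with LPS, and its level with LPS+Dex did not pass the test against LPS. Its RNA was at 168, 172, 175 and 203 CPM in LPS+Dex, at 185, 191, 171 and 180.2 CPM in LPS, and at 34.2, 33.6, 29.0 and 34.2 CPM in vehicle. The LPS+Dex and LPS libraries were interleaved, with the highest value in LPS+Dex, and all lay far above vehicle. Footprints were at 103, 102, 113, 61.3 and 114 CPM in LPS+Dex, at 112, 105, 94.5, 43.4 and 109 CPM in LPS, and at 11.3, 11.5, 10.4, 17.7 and 9.41 CPM in vehicle. Here too the LPS+Dex and LPS libraries overlapped, with or without replicate 4. DHX58 rose with LPS by 2.47 ± 0.08 in RNA (adjusted p = 1e-11) and by 2.95 ± 0.26 in footprints (adjusted p = 2.7e-07), or 3.30 ± 0.08 without the libraries numbered 4. LPS+Dex relative to LPS gave -0.02 ± 0.08 in RNA (adjusted p = 0.9), a level of 98.9% with an interval of 88.2% to 111%. In footprints it gave 0.09 ± 0.24 (adjusted p = 0.88), and 0.04 ± 0.07 without the libraries numbered 4 (adjusted p = 0.7). The RNA interval lies above the upper bounds of the other 5 genes, the highest of which was 79.0% for IFIT3. The difference between genes was not tested.

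**Figure D2:**
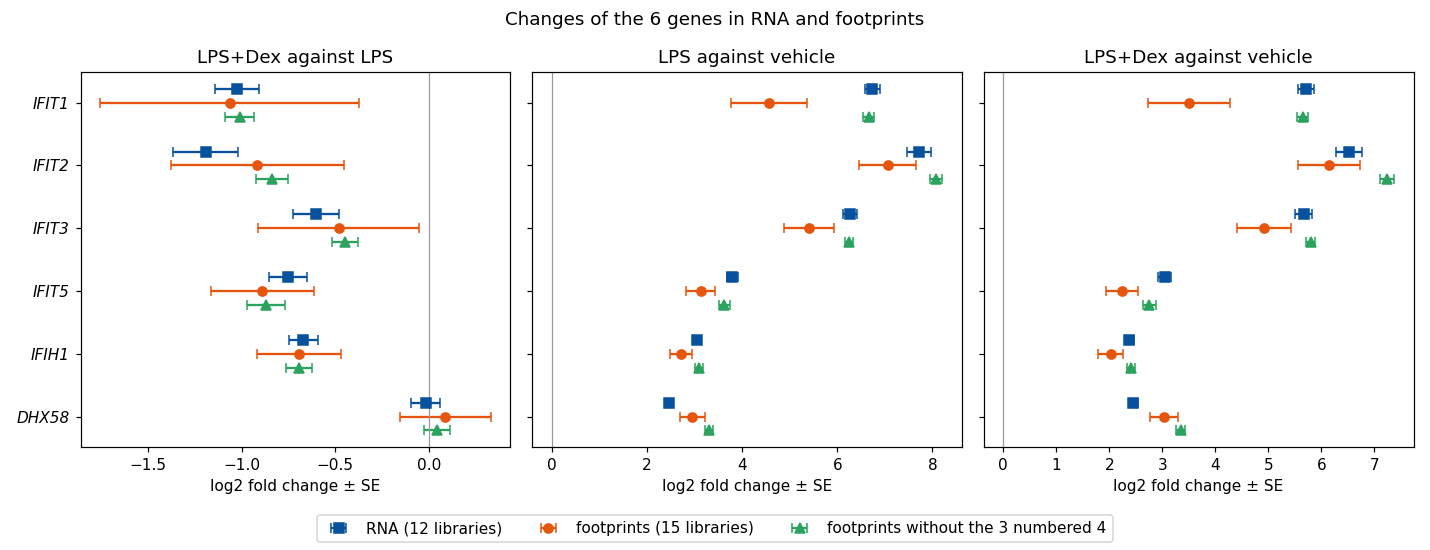
Log2 fold changes (horizontal axes) with their SE for the 6 genes in LPS+Dex against LPS, LPS against vehicle and LPS+Dex against vehicle. Squares are RNA, circles are footprints of all libraries and triangles are footprints without the libraries numbered 4; in LPS+Dex against LPS the RNA value is -0.02 for DHX58 and between -0.60 and -1.19 for the other 5.

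The balance between the sensor genes differed between the groups. The DHX58 level per IFIH1 level in RNA was 0.584 to 0.609 in the LPS+Dex libraries, 0.334 to 0.423 in LPS and 0.488 to 0.593 in vehicle. The LPS libraries were below both other groups, which overlapped. In footprints the ratio was 0.460 to 0.575 in LPS+Dex, 0.204 to 0.336 in LPS and 0.215 to 0.310 in vehicle. There the LPS+Dex libraries were all above the rest, and LPS and vehicle overlapped. These ratios are descriptive and carry no gene length.

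Against vehicle, LPS+Dex left the IFIT genes far above their starting levels. The RNA log2 fold changes were 5.71 ± 0.15 for IFIT1, 6.52 ± 0.25 for IFIT2, 5.67 ± 0.15 for IFIT3 and 3.04 ± 0.12 for IFIT5. They were 2.38 ± 0.08 for IFIH1 and 2.46 ± 0.08 for DHX58. Footprint values without the libraries numbered 4 were 5.65 ± 0.11, 7.24 ± 0.13, 5.80 ± 0.09, 2.76 ± 0.12, 2.41 ± 0.07 and 3.34 ± 0.08 for the same genes in the same order. With all libraries IFIT1 gave 3.51 ± 0.77, IFIT2 6.14 ± 0.59 and IFIT3 4.92 ± 0.51. The other 3 genes gave 2.02 to 3.04.

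**Figure D3:**
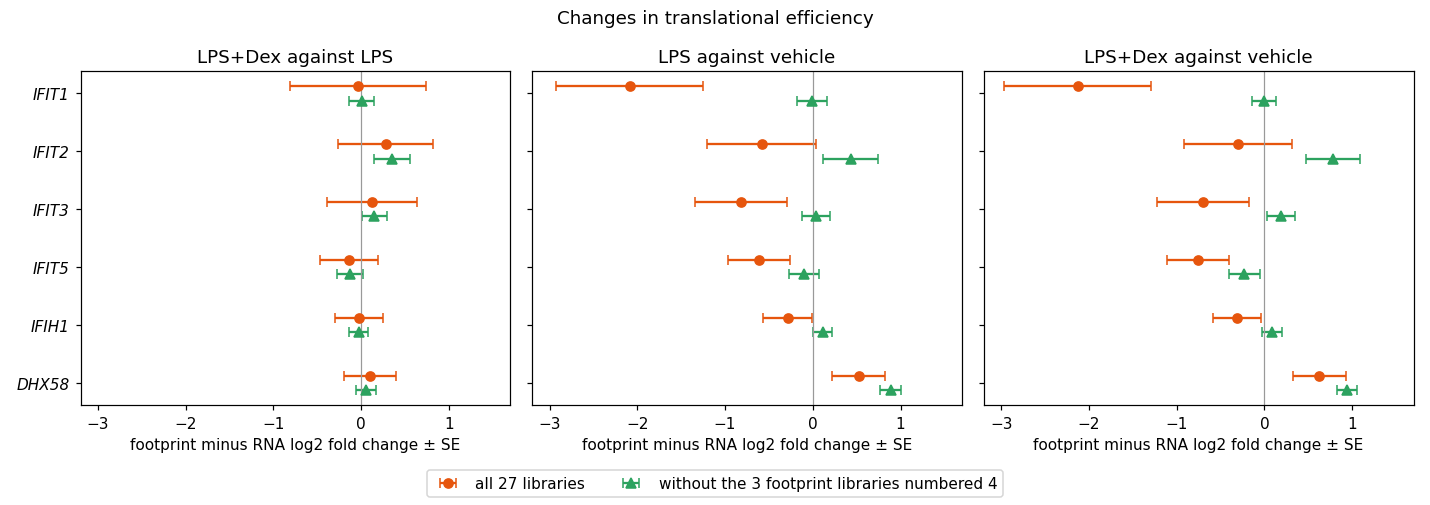
Change in translational efficiency, the footprint log2 fold change minus the RNA log2 fold change, with its SE, for the 6 genes in 3 comparisons. Circles are fits of all 27 libraries and triangles are fits without the 3 footprint libraries numbered 4; for IFIT1 in LPS against vehicle the value is -2.09 with these libraries and -0.01 without them, and for DHX58 0.52 and 0.89.

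Translational efficiency (TE) is the number of footprints per mRNA, and a change in it means that footprints and RNA did not change by the same factor. With all 27 libraries none of the 6 genes passed edgeR's test of this interaction in LPS against vehicle, where 0.987% of all 13679 genes rose and 0.526% fell. Unadjusted p was under 0.05 for 1 of the 6, IFIT1, and DESeq2 called 0 of the 5 genes to which it gave an adjusted p. None passed in LPS+Dex against LPS, with 0 of 6 under 0.05 unadjusted, 0 of 5 by DESeq2, and 0.0292% and 0.00731% of all genes rising and falling. None passed in LPS+Dex against vehicle either, with 2 of 6 under 0.05 unadjusted, 0 of 5 by DESeq2, and 1.12% and 0.424% of all genes rising and falling.

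Without the libraries numbered 4, DHX58 rose in TE with LPS by 0.89 ± 0.12 (adjusted p = 2.3e-05), where 2.84% of all genes rose. With LPS+Dex against vehicle it rose by 0.94 ± 0.12 (adjusted p = 5.9e-06), where 5.14% of genes rose. With all libraries these values were 0.52 ± 0.30 (adjusted p = 0.56) and 0.63 ± 0.30 (adjusted p = 0.35). The footprint level of DHX58 per RNA level, without the libraries numbered 4, was 0.602 in LPS+Dex, 0.579 in LPS and 0.325 in vehicle. LPS+Dex against LPS gave a TE change of 0.06 ± 0.11 (adjusted p = 0.87). The sensor IFIH1 gave 0.11 ± 0.11 in LPS against vehicle (adjusted p = 0.69), on the same libraries.

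No IFIT gene was called in TE with or without the libraries numbered 4 in the fits without a block, and the estimates depended on those libraries. With the replicate block and without those libraries, IFIT2 was called in LPS+Dex against vehicle (0.75 ± 0.24, adjusted p = 0.045). That fit called many genes: 1025 of 13639 rose and 597 fell. In LPS against vehicle, IFIT1 gave -2.09 ± 0.84 with all libraries (adjusted p = 0.29) and -0.01 ± 0.17 without them. IFIT2 gave -0.58 ± 0.62 and 0.43 ± 0.31, IFIT3 -0.82 ± 0.52 and 0.04 ± 0.16, and IFIT5 -0.62 ± 0.35 and -0.10 ± 0.17. In LPS+Dex against LPS, TE changes without the libraries numbered 4 ran between -0.13 (IFIT5) and 0.35 (IFIT2), with SE of 0.11 to 0.20.

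**Figure D4:**
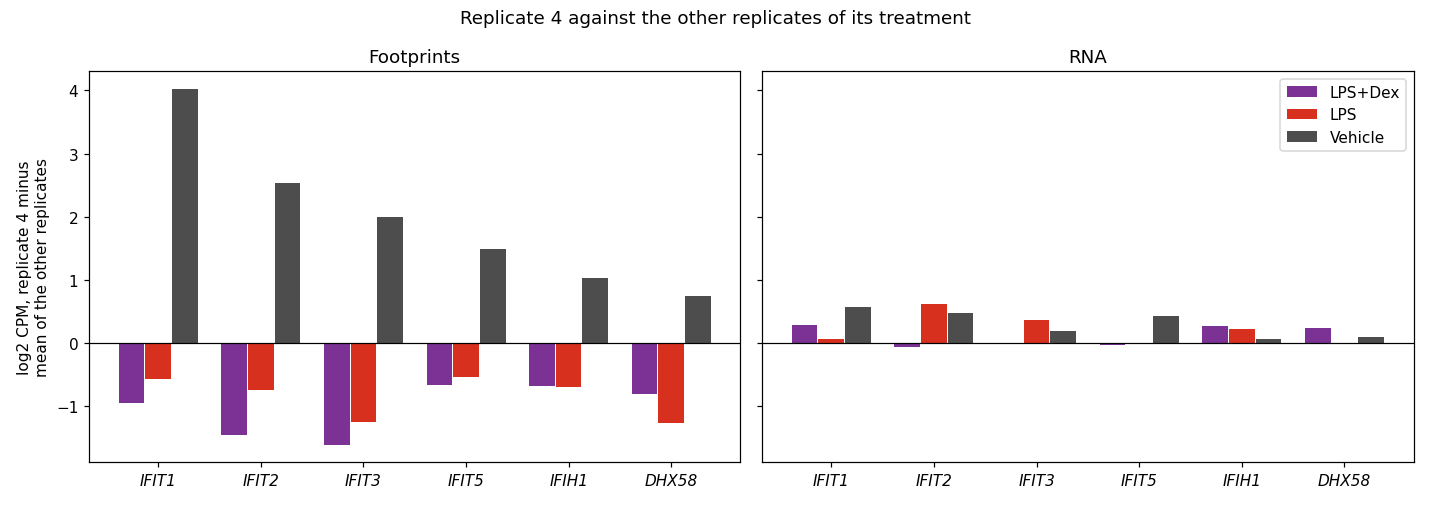
Difference between replicate 4 and the mean of the other replicates of its treatment, in log2 CPM (vertical axis), for the 6 genes in footprints and in RNA. In footprints all 6 vehicle bars are above 0 (0.74 to 4.03) and all LPS and LPS+Dex bars are below 0 (-0.55 to -1.61); in RNA no bar exceeds 0.61 in size.

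The footprint libraries numbered 4 departed from their groups in opposite directions for all 6 genes. In vehicle, replicate 4 exceeded the mean of the others by 4.03 on the log2 scale for IFIT1, 2.53 for IFIT2, 2.00 for IFIT3, 1.48 for IFIT5, 1.03 for IFIH1 and 0.74 for DHX58. It lay below the others by 0.55 to 1.27 in LPS (values of -0.55 for IFIT5 to -1.27 for DHX58) and by 0.67 to 1.61 in LPS+Dex (-0.67 for IFIT5 to -1.61 for IFIT3). The typical gene moved by 0.34 to 0.38 in size in these libraries. The RNA libraries numbered 4 differed from their groups by at most 0.61, for IFIT2 in LPS. All 6 genes were thus closer together across treatments in footprint replicate 4 than in the other replicates. Among further LPS-induced genes, read after their values were seen, RIGI followed the same pattern, with replicate 4 at 0.247 of the mean of the others in LPS+Dex, 0.378 in LPS and 2.84 in vehicle. CH25H, the gene of an enzyme that makes an oxysterol, did so as well, at 0.505, 0.383 and 3.97 in the same order. Footprints of IFNB1 were highest in replicate 4 of every treatment, at 10.4 CPM in LPS+Dex, 29.6 CPM in LPS and 0.278 CPM in vehicle, the last being 4 counts. These were 2.07, 2.82 and 17.6 times the mean of the other libraries. Whether the libraries numbered 4 hold material of more than 1 treatment was not tested. 

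The genes upstream and downstream of the sensors were read from lists of pathway members, whose counts stand beside the shares of all genes called. In RNA, 28.6% of all genes rose and 33.6% fell with LPS, and 15.5% rose and 15.4% fell with LPS+Dex relative to LPS. In footprints these shares were 25.4% and 27.2% with LPS (31.5% and 36% without the libraries numbered 4), and 9.08% and 7.99% with LPS+Dex relative to LPS (16.2% and 15.3% without them, 16.1% and 14.8% with the replicate block). Of 33 genes of the RIG-I-like receptor pathway, 16 rose and 9 fell with LPS in RNA (28.6% and 33.6% of all genes), with a median log2 fold change of 0.25 against -0.05 over all genes. The largest rise was that of ZC3HAV1 (3.96 ± 0.27), an antiviral protein that binds CpG-rich RNA, and the largest fall that of RNF125, a ubiquitin ligase that restrains the sensors, which had 0 to 4 counts per library in LPS and 12 to 56 in vehicle. RIGI, the sister sensor of MDA5, had 5 to 11 counts per library in LPS+Dex, 12 to 22 in LPS and 0 to 4 in vehicle in RNA. It was better covered by footprints, with 28 to 208 counts in LPS+Dex, 71 to 371 in LPS and 13 to 35 in vehicle, and these rose with LPS by 3.28 (3.83 without the libraries numbered 4). MAVS, the adaptor of both sensors, gave 0.05 ± 0.20 in RNA with LPS (adjusted p = 0.84). IRF3 fell by 0.51 ± 0.14 (adjusted p = 0.0053) and IRF7, an interferon-induced relative of IRF3, rose by 2.06 ± 0.17.

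With LPS+Dex relative to LPS, 5 of these 33 genes rose and 9 fell in RNA (15.5% and 15.4% of all genes, median -0.07 against 0.01). TRIM25, a ubiquitin ligase that activates RIG-I, fell by 1.58 ± 0.22, and TRAF5, an adaptor of the TNF receptor family, rose by 1.14 ± 0.27. IRF7 fell by 0.56 ± 0.17 (adjusted p = 0.02), while MAVS (-0.07, adjusted p = 0.81) and IRF3 (0.32, adjusted p = 0.098) did not pass. In footprints 15 rose and 8 fell with LPS (17 and 11 without the libraries numbered 4), and 2 rose and 3 fell with LPS+Dex relative to LPS (7 and 9 without them, 6 and 5 with the replicate block).

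**Figure D5:**
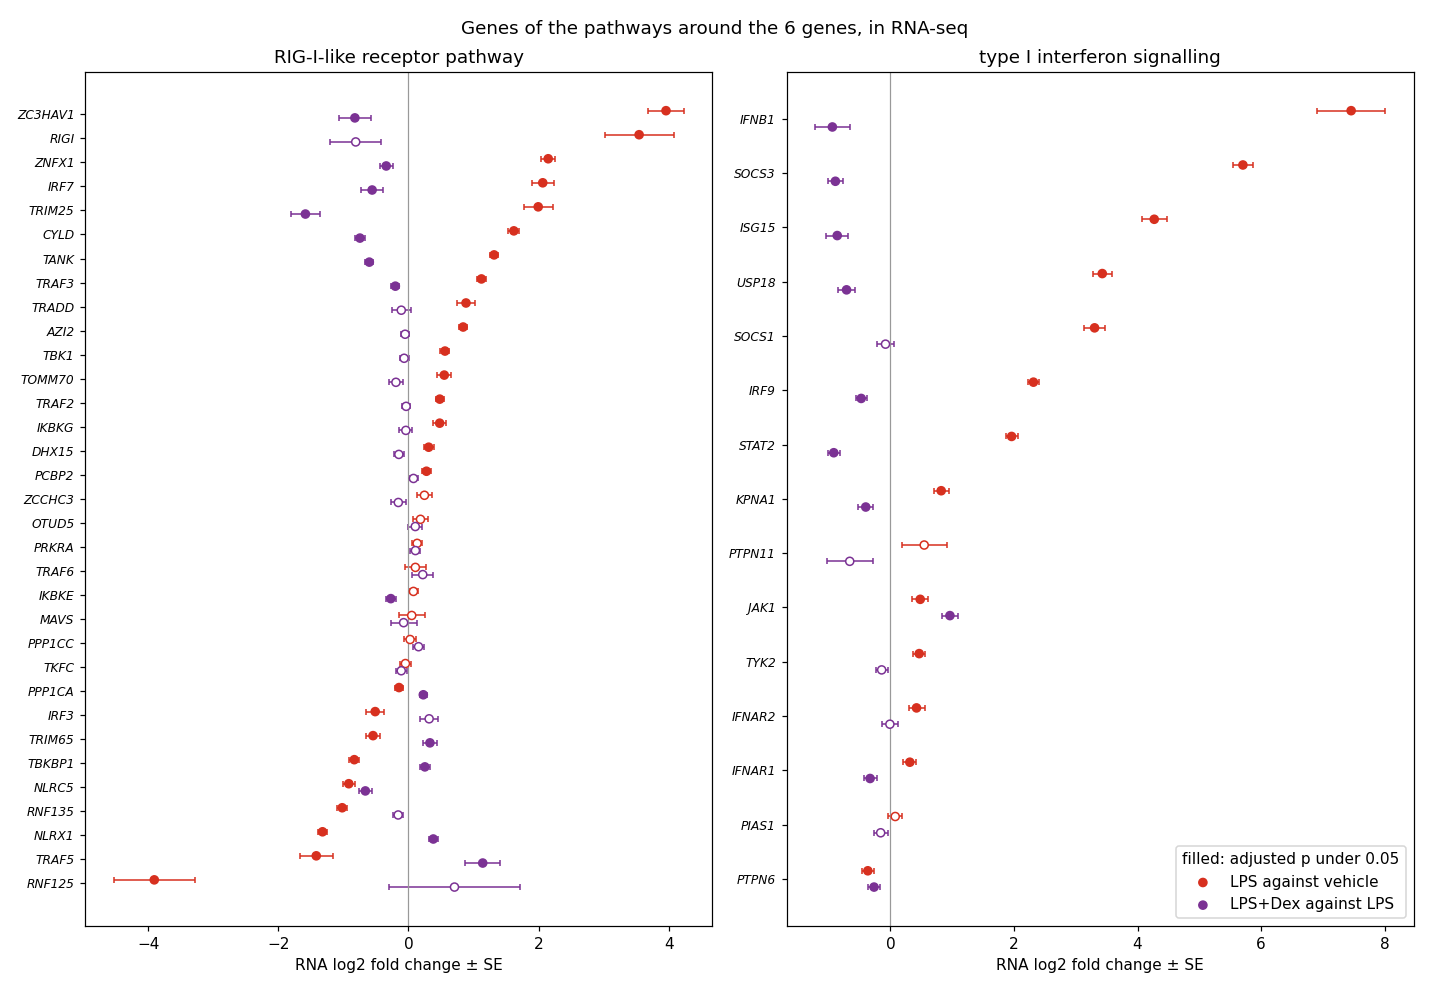
RNA log2 fold changes (horizontal axes) with their SE for 33 genes of the RIG-I-like receptor pathway and 15 of the 16 genes of type I interferon signalling (the other one is not shown), in LPS against vehicle and in LPS+Dex against LPS. Filled points passed at adjusted p under 0.05; IFNB1 has the largest rise with LPS in interferon signalling, and JAK1 is the 1 gene there that rose with LPS+Dex.

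Of 16 genes of type I interferon signalling, 13 rose and 1 fell with LPS in RNA (28.6% and 33.6% of all genes), with a median of 1.39 against -0.05 over all genes. Between LPS+Dex and LPS, 1 rose and 10 fell (15.5% and 15.4% of all genes), with a median of -0.44 against 0.01. IFNB1, the largest rise of the list, had 27 to 53 counts per RNA library in LPS+Dex, 54 to 140 in LPS and 0 to 2 in vehicle, and it fell with LPS+Dex relative to LPS (adjusted p = 0.02). STAT2 rose by 1.96 ± 0.10 with LPS and fell by 0.92 ± 0.10 with LPS+Dex, and IRF9 rose by 2.31 ± 0.09 and fell by 0.47 ± 0.09. JAK1, a kinase of the interferon receptor, was the 1 gene that rose with LPS+Dex (0.96 ± 0.13), and PTPN6, a phosphatase that restrains JAK signalling, the 1 that fell with LPS (-0.37 ± 0.09). In footprints 13 rose and 1 fell with LPS (14 and 1 without the libraries numbered 4), and 1 rose and 2 fell with LPS+Dex relative to LPS (1 and 8 without the libraries numbered 4, 1 and 6 with the replicate block). In TE with LPS, 0 of the 16 genes rose and 1 fell, STAT2, by 1.26 ± 0.27 (adjusted p = 0.014). Of the 33 genes of the RIG-I-like receptor pathway, 0 rose and 2 fell, IRF7 the most, by 1.33 ± 0.34 (adjusted p = 0.043). Over all genes 0.987% rose and 0.526% fell. Without the libraries numbered 4 the counts were 0 and 2 of the 16, and 1 and 4 of the 33. Among all 13639 genes of that fit, 388 rose (2.84%) and 286 fell. Footprints of both genes were higher in replicate 4 than the mean of the other libraries in every treatment. The ratios in LPS+Dex, LPS and vehicle were 1.86, 1.41 and 1.98 for STAT2, and 1.87, 1.53 and 2.31 for IRF7. Without replicate 4, mean footprints in LPS and vehicle were 107 and 60.8 CPM for STAT2, and 72.7 and 39.3 CPM for IRF7.

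The enzymes that make or read the mRNA cap, the structure IFIT1 inspects, formed a further list. Of 12 such genes, 3 rose and 1 fell with LPS in RNA (28.6% and 33.6% of all genes), and 0 rose and 3 fell with LPS+Dex relative to LPS (15.5% and 15.4% of all genes). CMTR1, which methylates the first ribose after the cap, was at 122 ± 3.08 CPM in LPS+Dex, 183 ± 4.18 CPM in LPS and 88.2 ± 5.80 CPM in vehicle (SD, n = 4 each). It rose by 1.06 ± 0.06 with LPS and fell by 0.58 ± 0.06 with LPS+Dex. CMTR2, which methylates the next ribose, fell by 0.45 ± 0.08 with LPS. In footprints 4 rose and 2 fell with LPS (6 and 2 without the libraries numbered 4). Between LPS+Dex and LPS, 0 rose and 2 fell (1 and 3 without those libraries, 0 and 4 with the replicate block).

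Of 27 genes around the 6 on their chromosomes, 19 passed the filter on low counts, and of these 7 rose and 5 fell with LPS in RNA (28.6% and 33.6% of all genes) and 2 rose and 5 fell with LPS+Dex relative to LPS (15.5% and 15.4% of all genes). CH25H, which lies near the IFIT cluster, was at 5.04 ± 0.550 CPM in LPS+Dex, 9.09 ± 1.88 CPM in LPS and 0.113 ± 0.0678 CPM in vehicle (SD, n = 4 each), where it had 1 to 6 counts per library. It rose with LPS by 6.23 ± 0.27 and fell with LPS+Dex by 0.85 ± 0.17. STAMBPL1 had the largest fall with LPS (-1.50 ± 0.20). With LPS+Dex relative to LPS, DPP4, near IFIH1, rose by 2.41 ± 0.28 and FAP, beside it, fell by 1.10 ± 0.17. IFIT1B, the relative that lies between IFIT3 and IFIT1, had at most 6 counts in any RNA library and was not tested.

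Because of their positions, 3 further neighbours were read after their values had been seen. LIPA RNA was at 147 ± 16.9 CPM in LPS+Dex, 219 ± 42.4 CPM in LPS and 222 ± 64.6 CPM in vehicle (SD, n = 4 each). It gave -0.02 ± 0.19 with LPS and fell by 0.58 ± 0.19 with LPS+Dex (adjusted p = 0.029). GCA, which starts beside IFIH1, fell with LPS by 0.44 ± 0.11 in RNA (adjusted p = 0.003). KAT2A, which lies 396 bases from DHX58, fell with LPS by 0.41 ± 0.13 (adjusted p = 0.015).

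The genes whose RNA followed each of the 6 most closely were found by the root mean square difference of centred log2 CPM over the 12 RNA libraries, among 9901 genes. For IFIT1 these were HERC5 (0.164) and OASL (0.204), and for IFIT2 OASL (0.357) and CXCL10 (0.377). For IFIT3 they were CCL4 (0.276) and HERC5 (0.301), for IFIT5 DENND5A (0.143) and TNIP1 (0.152), and for IFIH1 RFTN1 (0.137) and PARP9 (0.140). DHX58 had IGSF8 (0.0872) and PLK3 (0.146). In the 12 footprint libraries not numbered 4, among 8776 genes, CCL3L3 (0.222) and then OASL (0.262) were closest to IFIT1. CCL4L2 (0.244) and then CXCL10 (0.481) were closest to IFIT2. IFIT3 had CCL4 (0.146) and CCL20 (0.278), and IFIH1 had RFTN1 (0.118) and RIPK2 (0.125). Of these, OASL, CXCL10, CCL4 and RFTN1 were among the closest to the same gene in RNA. For IFIT5 and DHX58 none of the closest genes recurred. All these values share libraries and depth and are given as a description.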

How the data were processed

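RNA-seq and ribosome profiling counts of THP-1 libraries were used as the authors deposited them, as whole-number counts per Ensembl gene in 1 table per assay. The submitters' processing notes name GRCh38/hg38, Bowtie2 2.4.5 (footprints only), featureCounts 2.0.1, STAR 2.7.10a and DESeq2 1.26.0, without roles. Which step each tool served, the annotation, the counted feature, the strand setting and the handling of multi-mapped reads: not given in the sources used here.

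Counts were fitted with edgeR 4.0.16 in R 4.3.3 (filterByExpr with a minimum count of 10 and total of 15, TMM scaling, quasi-likelihood F test, 2-sided), separately for 12 RNA and 15 footprint libraries. For TE, 1 fit of all 27 tested the interaction of assay and treatment. It did not link RNA and footprint libraries of equal number, and its blocked form used the replicate number within each assay. P-values were adjusted by Benjamini-Hochberg over every gene tested in a comparison, with calls under 0.05. CPM used TMM-scaled library sizes. Library scaling makes all changes relative to the average gene.

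Every library was grouped by its title. After treatment means were removed, equal replicate numbers correlated above 0.1 in 15 of 15 footprint pairs (median 0.271). Different numbers did so in 34 of 60 pairs (median 0.169). A blocked fit was run beside the main one. Without the libraries numbered 4, only 3 of 12 same-numbered footprint pairs correlated above 0.1, and 2 of 36 different-numbered ones. Alternatives were other scalings, filters, DESeq2 1.42.0, and leaving libraries out. Promoter windows came from RefSeq (GRCh38.p14). The fits were also run on simulated counts, for LPS against vehicle only. Those counts had the same spread for every gene and no outlying replicate, so they do not cover the libraries numbered 4.

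The 6 genes and the lists were chosen with earlier results of these data known. Beside the 6 genes, the text names a fixed set of pathway genes. For the lists in RNA, it also names called genes with the largest rise or fall, with LPS and with LPS+Dex relative to LPS. Such genes in footprints and in LPS+Dex against vehicle are not all named. Windows that run into another gene near its beginning or end were cut or not printed. Some listed genes are counted but not reported here by name.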

Additional observations from a re-analysis of the deposited data

Results flagged for a closer look

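A library was looked at again where it lay far from the others of its group by Dixon's criterion at the 95% level. Of 36 groups (6 genes, 2 assays and 3 treatments), 12 held such a library. Chance flags about 1 in 20 groups. The 6 genes were read in the same libraries, so the groups are not independent and the 12 are not a test against that rate. Of these 12, 10 were footprint libraries numbered 4.

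In vehicle footprints, replicate 4 was high for all 6 genes. It held 40.3 CPM for IFIT1 against 1.88 to 2.66 CPM in the others, 10.2 CPM for IFIT2 against 1.30 to 2.12 CPM, and 60.6 CPM for IFIT3 against 12.8 to 16.8 CPM. It held 12.9 CPM for IFIT5 against 3.76 to 5.55 CPM, 82.5 CPM for IFIH1 against 36.4 to 42.4 CPM, and 17.7 CPM for DHX58 against 9.41 to 11.5 CPM.

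In LPS+Dex footprints, replicate 4 was low for IFIT3 (276 CPM against 802 to 950.4 CPM) and DHX58 (61.3 CPM against 102 to 114 CPM). In LPS footprints it was low for the same genes, at 483 CPM against 1067 to 1221 CPM for IFIT3 and 43.4 CPM against 94.5 to 112 CPM for DHX58.

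In RNA, 2 libraries stood apart by small amounts. IFIT5 was at 23.7 CPM in LPS+Dex replicate 3, against 22.1 to 22.2 CPM in the others. DHX58 was at 29.0 CPM in vehicle replicate 3, against 33.6 to 34.2 CPM in the others.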

How the results depend on the processing

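Among the alternatives run, the counts of the 6 genes called in RNA (6, 5 and 6) and in footprints for LPS and LPS+Dex against vehicle (6 and 6) did not change, except that DESeq2 gave IFIT1 no adjusted p in footprints and called the other 5. The footprint count for LPS+Dex against LPS, 2 with all libraries, was 1 without the filter on low counts (IFIH1 adjusted p = 0.054), and 5 without the libraries numbered 4, with or without the replicate block. Leaving out single libraries gave 0 to 4. The TE counts were 0 with all libraries. In LPS against vehicle they were 1 without the libraries numbered 4 and 1 with the block as well. In LPS+Dex against vehicle they were 1 and 2 (IFIT2 added, adjusted p = 0.045). Over all 13639 genes, the matching TE calls with LPS were 388 higher and 286 lower, and 506 and 392 with the block. For LPS+Dex against vehicle they were 701 and 335, and 1025 and 597 with the block. Without the libraries numbered 4, and with the block as well, these TE estimates turned: LPS against vehicle for IFIT2 (0.43 and 0.44), IFIT3 (0.039 and 0.041) and IFIH1 (0.11 and 0.12), LPS+Dex against LPS for IFIT1 (0.0063 and 0.014), and LPS+Dex against vehicle for IFIT2 (0.78 and 0.75), IFIT3 (0.19 and 0.18) and IFIH1 (0.086 and 0.092); the cause was not tested. Single left-out libraries turned the sign of LPS+Dex against LPS for DHX58 in RNA (-0.079 to 0.014), in footprints (-0.091 to 0.22) and in TE (-0.084 to 0.24), and in TE for IFIT1 (-0.15 to 0.11), IFIH1 (-0.15 to 0.099) and IFIT3 (-0.065 to 0.33). They also turned TE for IFIT2 in LPS (-0.80 to 0.28) and LPS+Dex (-0.52 to 0.57) against vehicle. With only the compared treatments in the fit, IFIT1 footprints passed for LPS+Dex against LPS (adjusted p = 0.0045). The replicate block with all libraries changed no call of the 6 genes except that of IFIT2 in footprints. In RNA, 7 of 12 same-numbered pairs correlated above 0.1 (median 0.207), against 13 of 36 different-numbered pairs (median -0.042). Without the libraries numbered 4 these were 6 of 9 (0.276) and 5 of 18 (-0.174). The main RNA fits had no block, and the labels do not say whether equal numbers mark pairs. With the block, RNA calls for LPS+Dex against LPS were 2451 higher and 2407 lower, against 2070 and 2053. Over all genes, the footprint calls for LPS+Dex against LPS were 1108 higher and 975 lower, 1961 and 1808 with the block, and 1980 and 1875 without the libraries numbered 4. TE calls for LPS against vehicle were 135 and 72, 233 and 216 by DESeq2, 492 and 408 with the block, and 388 and 286 without those libraries. Upper-quartile scaling moved the median RNA change with LPS to -0.17, against -0.05, and the calls to 2978 higher and 5399 lower, against 3818 and 4473. An alternative per coding length was not run. The vehicle levels of IFIT1 and IFIT2 rest on few counts, which limits their fold changes.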
